A study of Mus musculus with 20 samples.

Results

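Thermogenic and beige adipocyte genes were described as a set of 10 members, *Ucp1*, *Ppargc1a*, *Cidea*, *Dio2*, *Prdm16*, *Cox8b*, *Cox7a1*, *Elovl3*, *Cpt1b* and *Plin5*, out of 46078 genes in the count table. A member was the row whose Ensembl identifier carries that symbol in the mouse annotation (GENCODE vM21, mm10), so no measured value was used to match a symbol to its row. The members themselves were chosen with earlier results of these data known. Of the 10 members, 9 passed the filter on low counts, as did 21464 genes in all, and *Cpt1b* did not.

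Brown and beige adipocytes burn fuel to make heat. Cold or adrenergic agonists act on beta-adrenergic receptors, cyclic AMP rises, and the signal reaches the coactivator PGC1α (*Ppargc1a*), the deiodinase DIO2, which makes active thyroid hormone, and the uncoupling protein UCP1, which lets protons leak across the inner mitochondrial membrane. PRDM16 is a transcriptional regulator of the beige and brown programme, CIDEA is a lipid-droplet protein that marks these cells, COX8B and COX7A1 are tissue-restricted subunits of cytochrome c oxidase, ELOVL3 elongates fatty acids, CPT1B carries long-chain fatty acids into muscle and brown fat mitochondria, and PLIN5 couples lipid droplets to mitochondria. Epididymal adipose tissue (epiAT) of the mouse is a white depot in which this programme is low and browning is weak.

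The data were ribosome-bound RNA (TRAP–seq) pulled down from the epiAT of 20 mice carrying AdipoERCre and NuTRAP, in which tamoxifen-induced Cre under the adiponectin promoter switches on a GFP-tagged ribosomal protein, so the pull-down is of adipocyte ribosomes labelled before diet. All mice, controls included, carried these transgenes on a C57BL background (spelled C576BL6 in the labels and C57BL/N in the methods) and had received tamoxifen. In the short arm, C mice were 18 weeks old and on chow, H mice were 18 weeks old with 12 weeks of high-fat diet (HFD), CC_s mice were 26 weeks old and on chow, and HC mice were 26 weeks old with 12 weeks of HFD followed by 8 weeks of chow, with n = 3 in each group. In the long arm, CC_l mice were 31 weeks old and on chow, HH mice were 31 weeks old with 25 weeks of HFD, CCC mice were 39 weeks old and on chow, and HHC mice were 39 weeks old with 25 weeks of HFD followed by 8 weeks of chow, with n = 2 in each group. Each obese (H, HH) or weight loss (HC, HHC) group was compared with the chow group of its own age, so that no comparison shared a control with another. The arms carry separate run labels, and therefore arm and run cannot be told apart.

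Libraries held 10710277 to 36738954 counts, and 74.4% to 89.2% of the non-zero counts in a library were even, so that a count of 2 often stood for 1 fragment. The adipocyte markers were present in every library, at a summed 15489 to 131650 CPM (counts scaled to the size of the library) over 10 genes. Of the skeletal muscle markers, which matter here because *Cox8b*, *Cox7a1* and *Cpt1b* are also muscle genes, *Myh1*, *Myh4*, *Ckm* and *Tnnc2* had a median of 0 CPM over the libraries, whereas *Acta1* lay between 7.84 and 104 CPM and had the highest median of the list. Summed over all 12 genes they were at 13.6 to 81.0 CPM in C and 71.1 to 125 CPM in H, 55.3 to 90.0 in CC_s and 17.4 to 97.7 in HC, 70.5 to 105 in CC_l and 31.5 to 58.5 in HH, and 16.6 to 70.7 in CCC and 45.3 to 56.8 in HHC. The libraries C 1, C 2, HC 3 and CCC 2 stood apart: their 4 nuclear-retained RNAs (*Malat1*, *Neat1*, *Kcnq1ot1* and *Xist*) summed to 20337 to 37511 CPM, against 2776 to 12392 CPM in the other 16. Calls of members are given with and without those 4 libraries and calls of other listed genes by count, and leaving them out leaves C 3 and CCC 1 as single controls, assumed to vary like the other groups. Other libraries stood apart in markers of nearby tissue: CC_l 1 had 3666 CPM of 8 spermatid markers, against 13.4 CPM in CC_l 2 and at most 586 CPM elsewhere, and C 1 and H 2 had 1824 and 1169 CPM of 8 epididymal epithelium markers, against at most 384 CPM elsewhere.

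Short sequence elements, among them that of the cyclic AMP response, were looked for in the annotated windows around the transcription start. The RefSeq promoter table (GRCm38.p6, 250 bases before to 50 bases after each start) held 7 of the 10 members, in 8 windows. The cyclic AMP response element TGACGTCA and its half-site TGACGT (which lies within the full element) were searched on both strands, together with the oestrogen-related receptor element TCAAGGTCA. The full element was found only in the *Dio2* window among the 8, against 1.79% of all 32851 promoter windows. The half-site was found in the *Dio2* and *Ppargc1a* windows, against 7.51% of all, and the oestrogen-related receptor element was in none of the 8, against 0.423% of all. The windows with a match are shown because they belong to the 2 members that stand closest to the adrenergic signal. Each is written 5′ to 3′ on the strand of the gene, with the match in capitals. The stretch of *Ppargc1a* is chr5:51567726-51567825, minus strand, from 100 bases to 1 base before the start, with the half-site on the opposite strand from base 50 to base 45. That of *Dio2* is chr12:90739089-90739188, minus strand, from 150 to 51 bases before the RefSeq start, with the full element from base 95 to base 88. This RefSeq start lies upstream of the GENCODE span of *Dio2*, chr12:90724552-90738438.
Ppargc1a: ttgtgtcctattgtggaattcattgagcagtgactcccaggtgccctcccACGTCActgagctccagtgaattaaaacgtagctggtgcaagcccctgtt
Dio2: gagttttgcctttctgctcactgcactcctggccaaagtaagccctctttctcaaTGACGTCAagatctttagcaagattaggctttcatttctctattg
A match describes letters only, and no binding was measured here. Sites outside these windows were not searched, so a window without a match does not speak for the gene.

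The members differed widely in level. Per exon length, as RPKM (CPM divided by the exon length in kilobases), the cytochrome c oxidase subunits were highest, with medians over the 20 libraries of 109 RPKM for *Cox8b* and 38.2 RPKM for *Cox7a1*. *Cidea* followed at 7.50 RPKM, *Plin5* at 3.23 RPKM, *Ppargc1a* at 1.34 RPKM, *Prdm16* at 1.08 RPKM and *Dio2* at 0.296 RPKM. *Elovl3* and *Ucp1* were near the limit of detection, with medians of 0.0729 and 0.0616 RPKM, and *Cpt1b* had a median of 0. *Ucp1*, the gene that defines thermogenic fat, was thus the second lowest of the set by this measure.

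**Figure D1:**
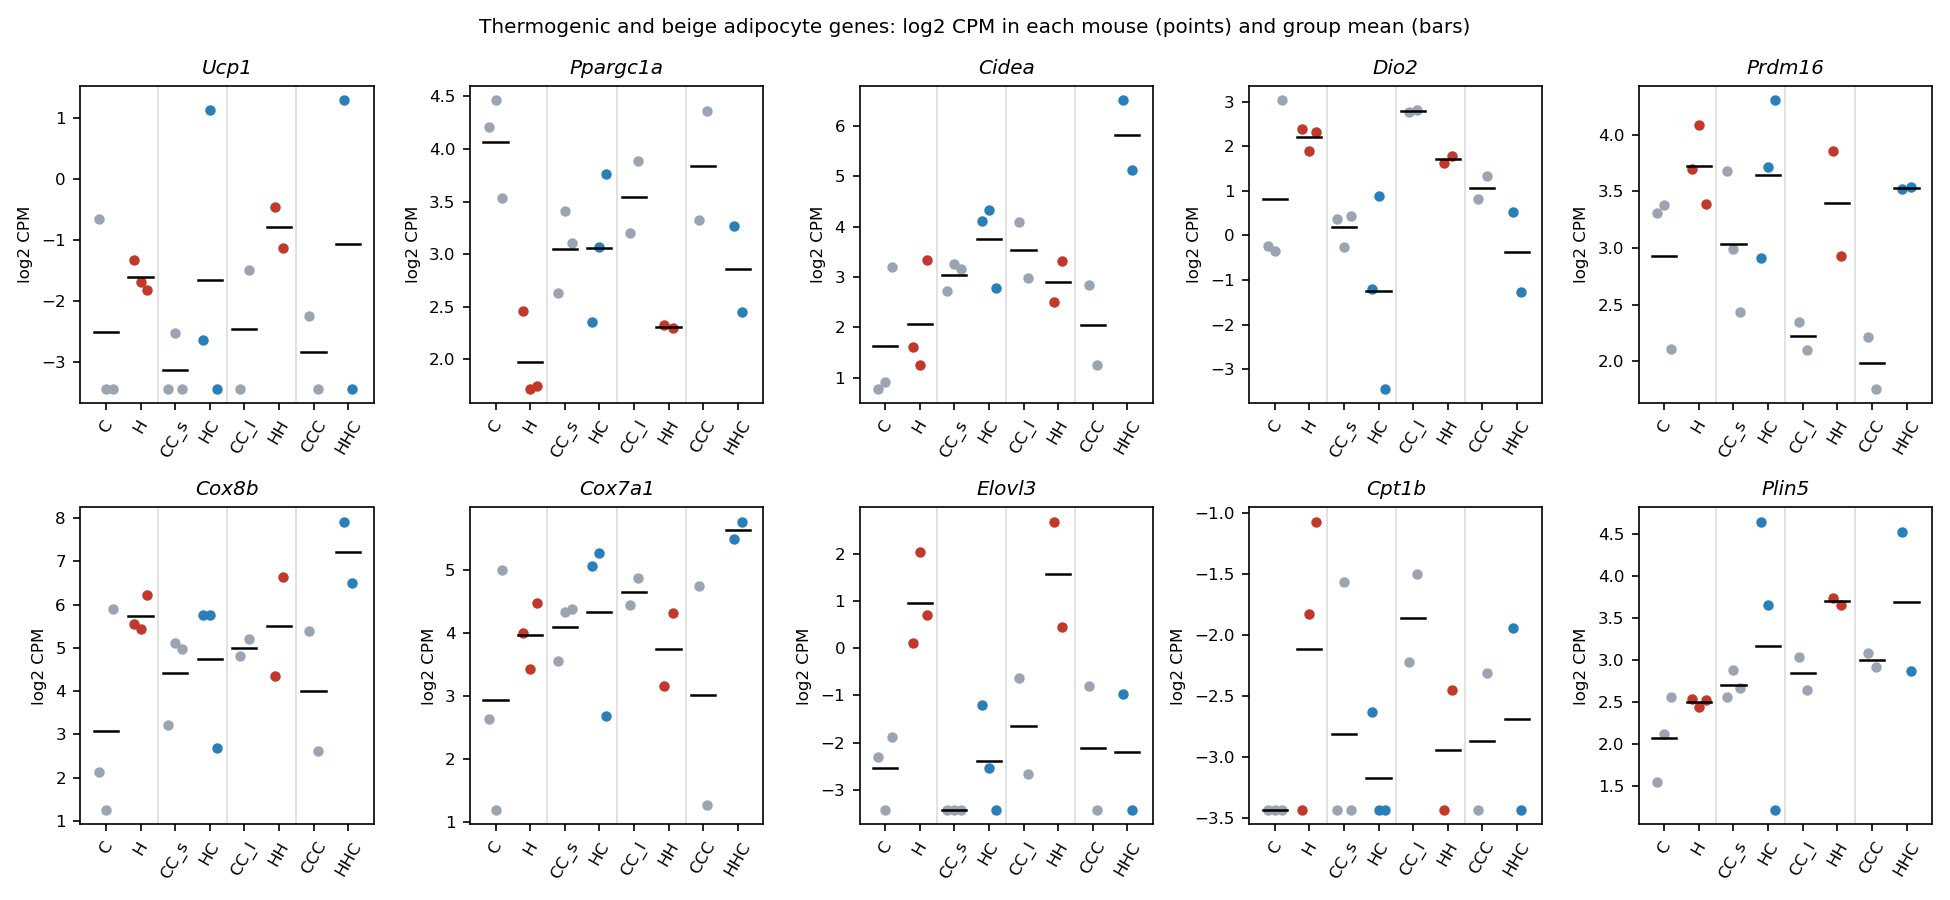
Level of each of the 10 members (log2 CPM, vertical axis, own scale per gene) in every mouse of the 8 groups (grey, chow; red, HFD; blue, HFD then chow), with a bar at the group mean; a count of 0 is drawn at −3.43. *Ppargc1a* was lower in all H mice than in all C mice, and both HHC mice had more *Cidea* than any other mouse.

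Across the 4 comparisons, 2 calls were made among the members. A gene was called where edgeR's quasi-likelihood test gave a nominal p below 0.01 and the log2 fold change was at least 1 in either direction, and p-values adjusted by the Benjamini-Hochberg method over all 21464 genes are given beside it. In H against C, 1 of the 9 members tested was called, *Ppargc1a*, which was lower, while 6.49% of all genes were called. In HC against CC_s and in HH against CC_l, no member was called, against 1.74% and 6.79% of all genes, and DESeq2 called 0 in both. There, 0 and 2 of the 9 members had an unadjusted p below 0.05 in edgeR, beside 1866 and 3732 of all 21464 genes. DESeq2 gave no p for *Cox8b* in any of the 4 comparisons. In HHC against CCC, 1 of 9 was called, *Cidea*, which was higher, against 3.12% of all genes. Median log2 fold changes of the 9 members were 0.40, 0.63, 0.85 and 1.55 in the order just given, beside medians over all genes tested of −0.15, 0.27, −0.23 and −0.06. These medians include *Ucp1* and *Elovl3*, whose fitted fold changes rest on very few counts.

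*Ppargc1a* (ENSMUSG00000029167, chr5:51454250-51567726, minus strand) encodes PGC1α, the coactivator that drives mitochondrial biogenesis and the thermogenic programme. It was measured at 18.4, 21.9 and 11.5 CPM in the 3 C mice and at 5.40, 3.21 and 3.26 CPM in the 3 H mice. The highest H mouse was therefore below the lowest C mouse. The log2 fold change in H against C was −2.12 (SE 0.47, edgeR adjusted p = 0.0264), which is 4.36-fold lower. Both C 1 and C 2, the mice with most *Ppargc1a* in that group, were among the libraries rich in nuclear-retained RNA. With the 4 such libraries left out, the difference against C 3 alone was −1.42 (adjusted p = 0.150), which passed the fold threshold but not the p threshold, in a test that takes its spread from the other groups. With the summed nuclear-retained RNA as a covariate instead, it was −1.37 (adjusted p = 0.0261) and remained called. No single mouse decided the nominal call, since the log2 fold change ranged from −2.41 to −1.92 over the 6 fits that each left out 1 mouse. The adjusted p was below 0.05 in 1 of these 6 fits, that without C 3, and ranged from 0.0192 to 0.157.

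After weight loss, the levels of *Ppargc1a* overlapped with those of the controls in the short arm, with a wider range. The 3 CC_s mice had 6.09, 10.6 and 8.49 CPM and the 3 HC mice 5.02, 8.27 and 13.5 CPM, a log2 fold change of 0.09 (SE 0.45, edgeR adjusted p = 0.977). The highest of these, HC 3, was a library rich in nuclear-retained RNA. The effect in H minus the effect in HC was −2.21 on the log2 scale (SE 0.65, edgeR adjusted p = 0.325), and therefore the difference between the obese and the weight loss comparison did not pass correction, nor did any of the 21464 genes. DESeq2 did call this difference at an adjusted p below 0.05. Without the 4 libraries rich in nuclear-retained RNA, the log2 fold change was −1.42 in H, against C 3 alone, and −0.38 in HC. The C mice, the youngest controls, had the highest group mean of *Ppargc1a* among the 8 groups (4.07 ± 0.48 log2 CPM, SD, n = 3), and the H mice the lowest (1.98 ± 0.42 log2 CPM, SD, n = 3). The place of C rests on C 1 and C 2, since C 3 alone had 3.53 log2 CPM, beside 3.20 and 3.88 in the CC_l mice.

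In the long arm, *Ppargc1a* was lower in HFD-fed mice in direction, without a call. CC_l mice had 9.12 and 14.7 CPM and HH mice 4.92 and 4.81 CPM, which do not overlap, and the log2 fold change was −1.29 (SE 0.56, edgeR adjusted p = 0.249). CCC mice had 9.92 and 20.4 CPM and HHC mice 9.55 and 5.39 CPM, which also do not overlap, with a log2 fold change of −1.02 (SE 0.56, edgeR adjusted p = 0.535). The higher CCC value came from CCC 2, a library rich in nuclear-retained RNA, and without the 4 such libraries the value for HHC was −0.33. With 2 mice a group, 55.3% of all genes did not overlap between HH and CC_l and 28.8% did not overlap between HHC and CCC. The effects of HH and H differed by 0.84 on the log2 scale (SE 0.72, adjusted p = 0.896 by edgeR).

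Over the 20 libraries, log2 CPM of *Ppargc1a* went with the log2 summed nuclear-retained RNA (Pearson r = 0.79, Spearman rho = 0.74; r = 0.70 without the 2 libraries farthest from the median). These libraries share groups and arms, and the correlation is given as a description. *Cox8b* (r = −0.71), *Cox7a1* (r = −0.70) and *Cidea* (r = −0.45) went the other way, and *Prdm16* did not follow it (r = 0.01). *Cox8b* and *Cox7a1* also went with the log2 summed skeletal muscle markers (Pearson r = 0.72 and 0.77, or 0.53 and 0.54 without the 2 libraries farthest from the median). Spearman rho was 0.52 and 0.51, and *Acta1* had the highest median of that list, at 53.7 CPM. They went with the summed adipocyte markers too (r = 0.45 and 0.68, or 0.34 and 0.67 without the 2 farthest). They went opposite to the summed mitochondrially encoded RNA (r = −0.67 and −0.73, or −0.49 and −0.63). *Cidea* went opposite to the endothelial markers (r = −0.68). The part of nuclear-retained RNA in these levels was not tested beyond the fits with the covariate and without the 4 libraries. That of muscle, endothelial, adipocyte or mitochondrially encoded RNA was not tested.

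**Figure D2:**
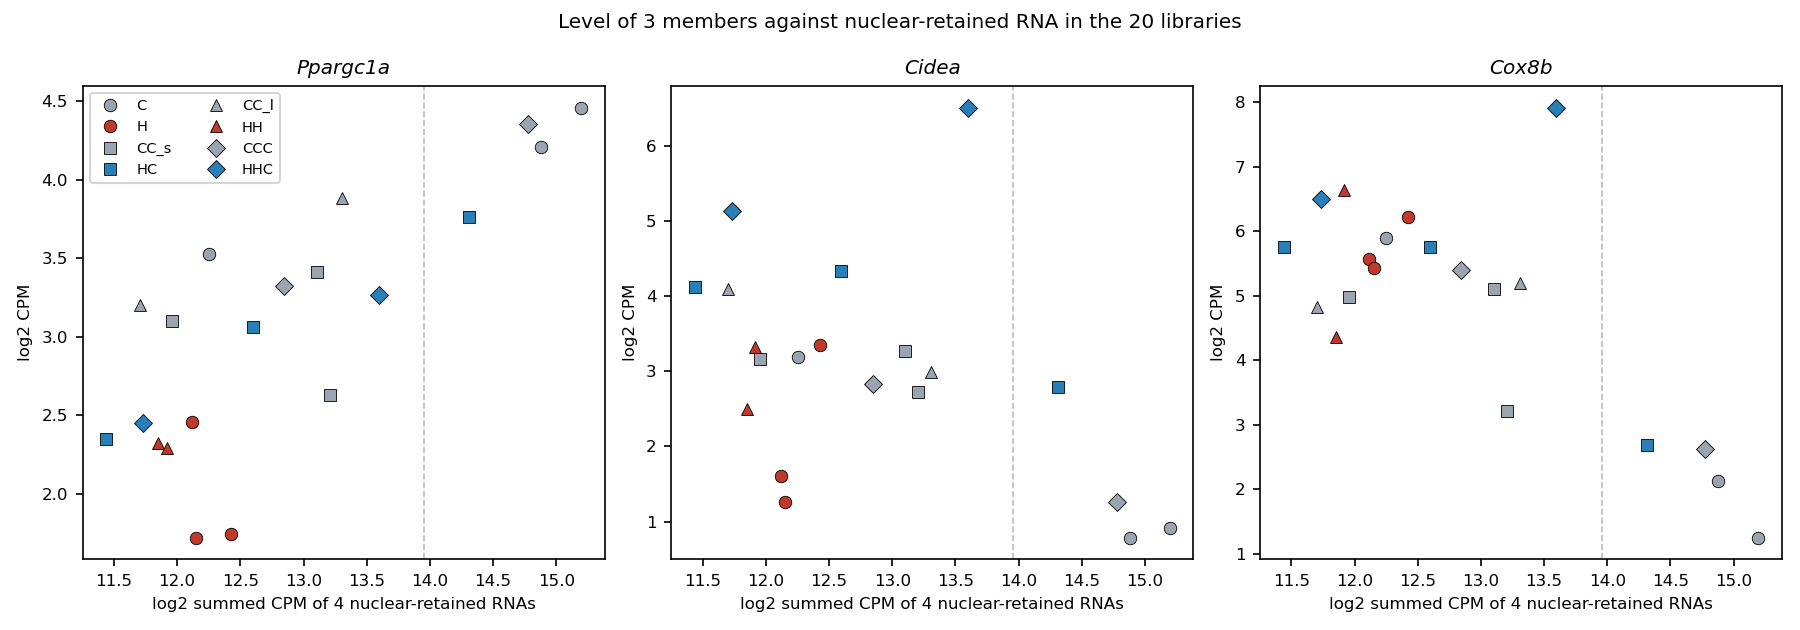
Level of *Ppargc1a*, *Cidea* and *Cox8b* (log2 CPM) against the log2 summed CPM of 4 nuclear-retained RNAs in the 20 libraries (symbols, groups; dashed line, division between the 4 highest libraries and the rest). *Ppargc1a* was high and *Cox8b* low in the 4 libraries to the right of the line, and *Cidea* stood highest in HHC mice, which lie to the left of it.

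The related coactivator *Ppargc1b* (PGC1β) was called in the same comparison. It averaged 32.9 ± 13.2 CPM in C and 7.03 ± 1.88 CPM in H (SD, n = 3 each), with a log2 fold change of −2.23 (SE 0.59, edgeR adjusted p = 0.0581). Its log2 fold changes were −1.07 in HC, −1.14 in HH and −1.14 in HHC, none of which was called. In H it was −1.23 (adjusted p = 0.346) without the 4 libraries rich in nuclear-retained RNA and −1.31 (adjusted p = 0.116) with the covariate, and was called in neither. Per exon length, *Ppargc1a* made up 24.8% ± 2.8 of the 2 coactivators together in C and 25.7% ± 6.7 in H (SD, n = 3 each), with p = 1.0 in a two-sided exact permutation test that cannot give less than 0.1. In HC against CC_s it made up 31.8% ± 2.1 against 18.9% ± 7.4 (exact permutation p = 0.1, also the smallest possible).

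*Prdm16* (ENSMUSG00000039410, chr4:154316125-154636873, minus strand) encodes the regulator that holds brown and beige identity. C mice had 9.80, 10.3 and 4.21 CPM and H mice 12.9, 16.9 and 10.4 CPM. CC_s mice had 12.7, 7.86 and 5.32 CPM and HC mice 7.42, 13 and 19.6 CPM. The H mice all lay just above the C mice, while HC and CC_s overlapped. In the long arm, CC_l mice had 5.00 and 4.19 CPM, HH mice 14.4 and 7.54 CPM, CCC mice 4.54 and 3.29 CPM, and HHC mice 11.4 and 11.5 CPM. Both long-arm groups with a history of HFD were above their own controls in every mouse. The log2 fold changes were 0.72 (SE 0.46, edgeR adjusted p = 0.447) in H, 0.63 (SE 0.46, adjusted p = 0.713) in HC, 1.25 (SE 0.58, adjusted p = 0.275) in HH and 1.55 (SE 0.58, adjusted p = 0.356) in HHC. None was called, although DESeq2 called *Prdm16* in HHC at the nominal thresholds (log2 fold change 1.68, adjusted p = 0.126), as did the fit with the nuclear-retained RNA covariate (1.84, adjusted p = 0.180). *Mecom*, its close relative, had log2 fold changes of 0.76, 0.63, 1.92 and −1.73 in H, HC, HH and HHC, none called. The exons of *Prdm16* overlap those of antisense genes by 109 bases, and how strand was treated in counting is not given in the sources used here.

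*Cidea* (ENSMUSG00000024526, chr18:67343604-67367785, plus strand) encodes the lipid-droplet protein used as a marker of beige and brown adipocytes. CCC mice had 7.05 and 2.31 CPM and HHC mice 90.8 and 34.9 CPM. The HHC mice held the 2 highest values of all 20 libraries, and the next, an HC mouse, had 20.1 CPM. The log2 fold change in HHC against CCC was 3.75 (SE 0.96, edgeR adjusted p = 0.202), which is 13.4-fold higher and did not pass correction. Adjusted p was 0.00213 by DESeq2, 0.0177 by edgeR's likelihood ratio test and 3.38e-05 without the filter on low counts. The nominal call was lost without CCC 2 (3.15, adjusted p = 1.0) and without HHC 1 (2.89, adjusted p = 0.397). Without the 4 libraries rich in nuclear-retained RNA, of which CCC 2 is one, it passed the nominal thresholds (3.24, adjusted p = 1.0), but against CCC 1 alone and with a spread taken from the other groups. Among the 8 groups, HHC had the highest mean *Cidea* (5.82 ± 0.97 log2 CPM, SD, n = 2), apart from HC, the next in order, without overlap. The 6 neighbouring pairs of groups below that overlapped.

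In the other comparisons *Cidea* overlapped between the groups. C mice had 1.63, 1.79 and 9.04 CPM and H mice 2.97, 2.31 and 10.1 CPM (log2 fold change 0.29, SE 0.71, edgeR adjusted p = 0.879). CC_s mice had 6.49, 9.50 and 8.87 CPM and HC mice 17.3, 20.1 and 6.84 CPM (0.83, SE 0.71, adjusted p = 0.761). CC_l mice had 17.0 and 7.86 CPM and HH mice 5.56 and 9.90 CPM (−0.69, SE 0.86, adjusted p = 0.719). The 2 higher HC mice were above all CC_s mice, and the third, HC 3, was one of the libraries rich in nuclear-retained RNA. The effect in HH minus that in HHC was −4.43 on the log2 scale (SE 1.27, edgeR adjusted p = 0.102), which did not pass correction, while 0.815% of all genes did. The effect in HHC minus that in HC was 2.92 (SE 1.14, adjusted p = 0.376). *Cidec*, the white-fat member of the family, was far more abundant: *Cidea* was 0.347% ± 0.068 of *Cidea* and *Cidec* together per exon length in CCC and 2.59% ± 1.51 in HHC (SD, n = 2 each; exact permutation p = 0.333, the smallest possible). The log2 fold changes of *Cidec* were 0.11, −0.46, −1.54 and 0.67 in H, HC, HH and HHC, none called, and *Cideb* was too low to be tested.

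*Cox8b* (ENSMUSG00000025488, chr7:140898945-140900446, minus strand) encodes a subunit of cytochrome c oxidase found in muscle and brown fat, where other tissues use *Cox8a*. C mice had 4.25, 2.28 and 59.2 CPM and H mice 47.2, 43.1 and 74.5 CPM. The spread within C was wide, the 2 low mice being C 1 and C 2. The log2 fold change in H was 1.32 (SE 1.03, edgeR adjusted p = 0.542), and without C 3 it was 4.07 (adjusted p = 0.0512) and was called, so that this single mouse set the call. Without the 4 libraries rich in nuclear-retained RNA it was 0.0056, as estimated against C 3 alone.

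CC_s mice had 9.13, 34.4 and 31.3 CPM of *Cox8b* and HC mice 53.8, 54.0 and 6.35 CPM, a log2 fold change of 0.61 (SE 1.02, edgeR adjusted p = 0.899). CC_l mice had 28.1 and 36.5 CPM and HH mice 20.4 and 99.4 CPM (0.89, SE 1.25, adjusted p = 0.752). CCC mice had 41.8 and 6.04 CPM and HHC mice 241 and 90.5 CPM (2.79, SE 1.32, adjusted p = 0.468). HHC was the group with the highest mean and did not overlap with H, the next in order. It did overlap with HH, where the mouse at 99.4 CPM was above the HHC mouse at 90.5 CPM. The difference between HHC and CCC was not called, but was called in the fit of the compared groups only (2.92, adjusted p = 0.713) and without the filter on low counts (2.87, adjusted p = 0.000163).

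As a share of *Cox8b* and *Cox8a* together, per exon length, *Cox8b* was 4.39%, 1.66% and 7.04% in C and 5.74%, 10.5% and 11.7% in H. It was 4.19%, 2.67% and 2.84% in CC_s and 2.60%, 3.94% and 9.61% in HC. In the long arm it was 2.28% and 2.50% in CC_l, 8.92% and 16.7% in HH, 3.32% and 5.64% in CCC, and 44.2% and 6.30% in HHC. *Cox8a* was thus the main isoform in all 20 libraries, and the share of *Cox8b* was highest in HHC 1. Both long-arm comparisons were without overlap, where the exact permutation test cannot go below p = 0.333. In H (exact permutation p = 0.2) and HC (exact permutation p = 0.7) the shares overlapped with those of the controls, in a test that cannot give less than 0.1. *Cox8a* itself had log2 fold changes of 0.76, 0.42, −1.90 and 0.32 in H, HC, HH and HHC, none called.

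*Cox7a1* (ENSMUSG00000074218, chr7:30184144-30186078, plus strand), the muscle and brown fat isoform of another subunit of the same enzyme, had 6.10, 2.18 and 31.9 CPM in C and 15.9, 10.7 and 22.3 CPM in H. It had 11.7, 20.1 and 20.8 CPM in CC_s and 33.5, 38.5 and 6.35 CPM in HC. In the long arm it had 21.8 and 29.1 CPM in CC_l, 8.85 and 19.9 CPM in HH, 26.9 and 2.31 CPM in CCC, and 45.0 and 54.3 CPM in HHC. Both HHC mice were above all other 18 mice, as they were for *Cidea*. The log2 fold changes were 0.28 (SE 0.84, edgeR adjusted p = 0.906) in H, 0.58 (SE 0.84, adjusted p = 0.881) in HC, −0.82 (SE 1.04, adjusted p = 0.718) in HH and 1.77 (SE 1.06, adjusted p = 0.571) in HHC. The value in HHC was 4.42 and called without CCC 1, a fit that left the library rich in nuclear-retained RNA as the sole control, and was 0.88 at the lowest when another mouse was left out. As a share of *Cox7a1* and *Cox7a2* per exon length, the group means lay between 4.41% ± 1.58 in C (SD, n = 3) and 13.6% ± 10.1 in HHC (SD, n = 2). The exact permutation p was 0.2 in H and 0.3 in HC, in a test that cannot give less than 0.1. It was 0.333 in HH and in HHC, the smallest possible there, and in both the shares did not overlap with those of the controls. *Cox7a2* and *Cox7a2l* were not called in any comparison, with log2 fold changes from −1.36 to 0.79 and from −0.24 to 0.89.

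**Figure D3:**
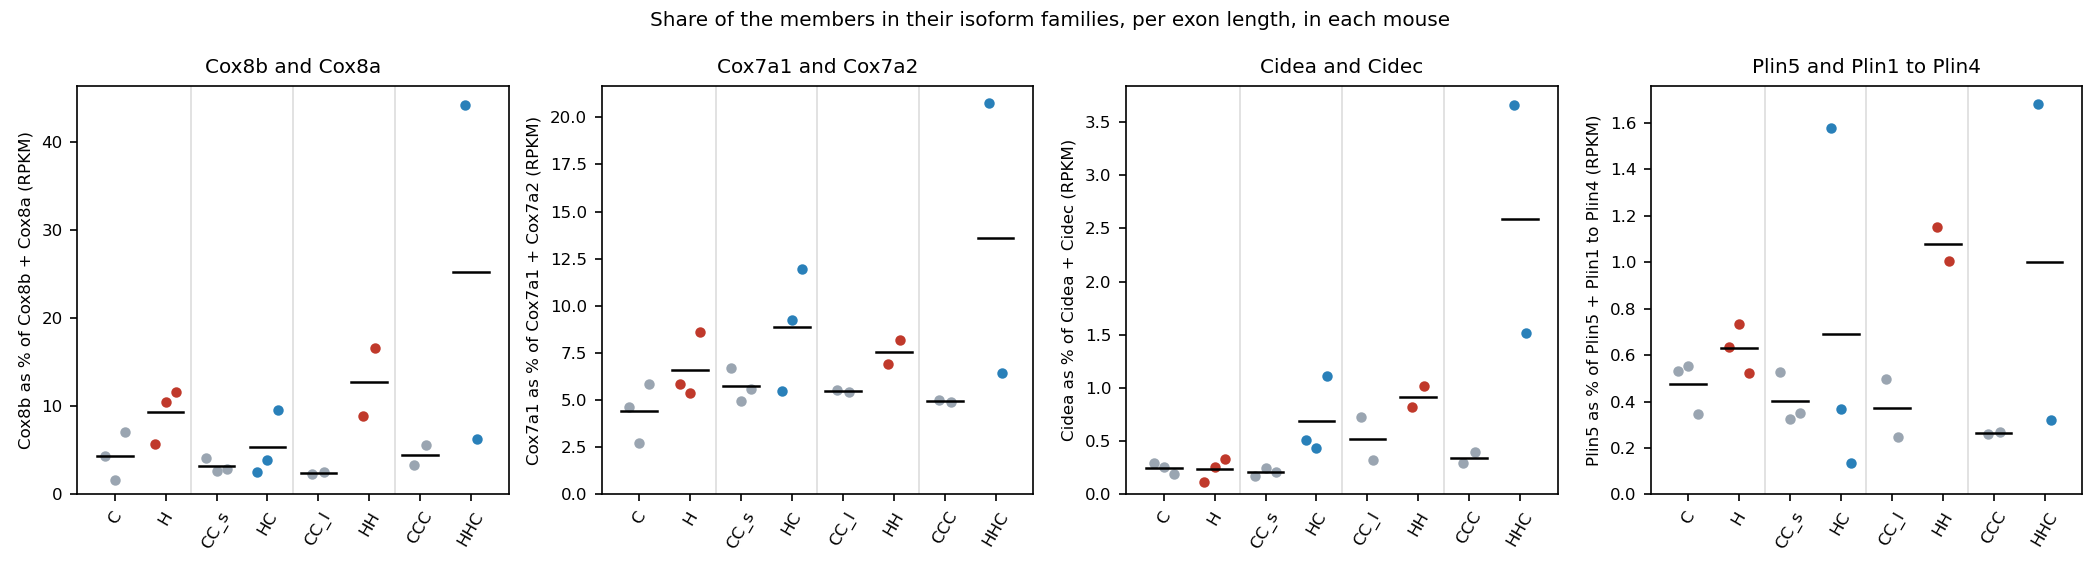
Share of *Cox8b*, *Cox7a1*, *Cidea* and *Plin5* in the summed RPKM of their isoform families (percent) in every mouse of the 8 groups, with a bar at the group mean. HHC 1 stood highest in each panel, with 44.2% for *Cox8b*, and all shares of *Cidea* and *Plin5* were below 4%.

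*Plin5* (ENSMUSG00000011305, chr17:56111601-56117596, minus strand) encodes the perilipin of oxidative tissues. C mice had 2.83, 4.27 and 5.82 CPM and H mice 5.70, 5.33 and 5.66 CPM (log2 fold change 0.37, SE 0.60, edgeR adjusted p = 0.798). CC_s mice had 5.82, 7.29 and 6.28 CPM and HC mice 24.9, 12.5 and 2.23 CPM (1.03, SE 0.60, adjusted p = 0.620). HC 1 and HC 2 were thus above all controls and HC 3 below them, and without HC 3 the log2 fold change was 1.53 (adjusted p = 0.964), which is a nominal call that this library decides, whereas without HC 1 it was 0.19 (adjusted p = 0.902). CC_l mice had 8.11 and 6.16 CPM and HH mice 13.2 and 12.5 CPM (0.85, SE 0.73, adjusted p = 0.569). CCC mice had 8.36 and 7.47 CPM and HHC mice 22.8 and 7.22 CPM (0.92, SE 0.73, adjusted p = 0.686), the difference in HHC being −0.14 without HHC 1. Of the other perilipins, *Plin1*, *Plin2*, *Plin3* and *Plin4* were called in no comparison. Their log2 fold changes in HH were −1.33, 1.41, −0.10 and −1.47, in that order.

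*Dio2* (ENSMUSG00000007682, chr12:90724552-90738438, minus strand) encodes the enzyme that makes active thyroid hormone within the cell. C mice had 0.762, 0.695 and 8.06 CPM and H mice 5.17, 3.64 and 4.89 CPM. CC_s mice had 1.19, 0.737 and 1.27 CPM and HC mice 0.344, 1.77 and 0 CPM. The groups overlapped in both. CC_l mice had 6.71 and 6.94 CPM, HH mice 3.01 and 3.36 CPM, CCC mice 1.67 and 2.42 CPM, and HHC mice 1.34 and 0.323 CPM, so that both long-arm groups with HFD were below their controls. The log2 fold changes were 0.52 (SE 1.06, edgeR adjusted p = 0.847) in H, −0.58 (SE 1.09, adjusted p = 0.915) in HC, −1.10 (SE 1.31, adjusted p = 0.700) in HH and −1.31 (SE 1.36, adjusted p = 0.768) in HHC, none of them larger than its error by enough to be called. With 1 mouse left out, they ranged from 0.046 to 2.64 (without C 3) in H, from −2.52 (without HC 2) to −0.018 (without HC 3) in HC and from −2.65 (without HHC 1) to −0.61 (without HHC 2) in HHC. In the order of group means, CC_l, H and HH were highest, each apart from the next without overlap. C 3, at 8.06 CPM, was nevertheless the highest of all mice, so that the C group overlapped with each of them. *Dio1* and *Dio3* were low throughout, with group means up to 2.23 and 0.773 CPM, and were not called. The exons of *Dio2* overlap a divergent long non-coding RNA by 100 bases.

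*Elovl3* (ENSMUSG00000038754, chr19:46131897-46135694, plus strand), a fatty acid elongase induced in cold-exposed brown fat, was detected mainly in mice on HFD at harvest. The 3 C mice had 2, 0 and 4 counts, and the 3 H mice 26, 148 and 32 counts, or 0.989, 4.02 and 1.54 CPM. The 2 CC_l mice had 18 and 1 counts, and the 2 HH mice 138 and 28 counts, or 6.29 and 1.27 CPM. Every mouse on HFD was above every other mouse, since the highest of the remaining mice, CC_l 1, was at 0.549 CPM. The weight loss groups were at or near 0: HC mice had 10, 2 and 0 counts and HHC mice 5 and 0 counts, beside 0, 0 and 0 in CC_s and 8 and 0 in CCC. The log2 fold change was 4.42 in H (edgeR adjusted p = 0.210) and 3.55 in HH (adjusted p = 0.367), not called, although in H it was called at nominal thresholds by DESeq2 (4.47, adjusted p = 0.0569), by the likelihood ratio test (adjusted p = 0.0817), in the fit of the compared groups only (adjusted p = 0.0853) and without the filter on low counts (adjusted p = 0.0707). Fitted fold changes of HC and HHC are not given as results, since the counts were at or under the limit of 3 counts in most mice, although they enter the medians over the members given above. When 1 mouse was left out, the log2 fold change ranged from 3.63 to 5.21 in H and from 2.01 (without HH 1) to 5.74 (without CC_l 1) in HH. Of the related elongases, *Elovl6* was lower in H (log2 fold change −1.60, SE 0.53, edgeR adjusted p = 0.131) and *Elovl5* higher in HH (1.48, SE 0.43, adjusted p = 0.0831), and neither was called elsewhere. Markers of other cells were also higher in these groups. Of the macrophage markers, 7 of 8 were called higher in H, 7 of 8 in HC and 7 of 8 in HH, and none in HHC. Their summed level was 428 to 2809 CPM in H against 135 to 220 CPM in C, and 2843 to 3738 CPM in HH against 153 to 334 CPM in CC_l. Endothelial markers were called higher for 4 of 6 in H and 5 of 6 in HH, for none in HC, and lower for 2 of 6 in HHC. They summed to 1235 to 1704 CPM in H against 247 to 658 CPM in C, and to 736 to 1421 CPM in HH against 156 to 187 CPM in CC_l, while HC (196 to 814 CPM) overlapped with CC_s (165 to 764 CPM). Progenitor markers were called higher for 3 of 6 in HH and 1 of 6 in H and in HC. In HC the macrophage markers were at 403 to 1106 CPM and *Elovl3* was at or below 0.344 CPM. Over the 20 libraries, log2 CPM of *Elovl3* went with the log2 summed macrophage markers (Pearson r = 0.67, Spearman rho = 0.57). Without the 2 libraries farthest from the median, r was 0.53. Fewer labelled cells or less RNA per cell cannot be told apart in such bulk samples. The part of macrophage, endothelial or other cells in the levels of *Elovl3* was not tested.

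*Ucp1* (ENSMUSG00000031710, chr8:83290352-83298452, plus strand) had 142 counts over all 20 libraries and was seen in 12 of them. The C mice had 10, 0 and 0 counts and the H mice 8, 8 and 4. The CC_s mice had 0, 2 and 0 counts, and the HC mice 2, 52 and 0. The CC_l mice had 0 and 4 counts, the HH mice 14 and 8, the CCC mice 2 and 0, and the HHC mice 28 and 0. The highest levels were 2.35 CPM in HHC 1 and 2.09 CPM in HC 2, each a single mouse of its group. A library at 0 could still hold up to 3 counts (counting error only). In the libraries at 0 this was 0.0915 CPM (CC_l 1) to 0.199 CPM (CC_s 1) according to depth. That limit takes counts as independent, although a pair of counts often stood for a single fragment, so it may be too low. For these reasons no fold change is given. *Ucp2*, which is expressed in macrophages and many other cells, was higher than its control in H (267 against 19.9 CPM, log2 fold change 3.75, SE 0.51, edgeR adjusted p = 0.00207), in HC (151 against 41.8 CPM, log2 fold change 1.85, SE 0.47, adjusted p = 0.529) and in HH (289 against 80.5 CPM, log2 fold change 1.84, SE 0.58, adjusted p = 0.111), and was not called in HHC (1.22). *Ucp3* was called in none, with log2 fold changes from −1.56 to 0.30. Per exon length, *Ucp1* made up at most 5.63% of the 3 uncoupling proteins in any library.

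*Cpt1b* (ENSMUSG00000078937, chr15:89416405-89425863, minus strand) had 37 counts in all, with no library above 8, and no test was made. Of its 3372 exon bases, 2744 are shared on the same strand with the read-through gene *Gm44502*, so that reads could have been split or dropped and the level is uncertain. The isoform of white fat and liver, *Cpt1a*, was higher in H (87.3 against 39.4 CPM, log2 fold change 1.15, SE 0.33, edgeR adjusted p = 0.0767) and in HH (94.9 against 42.1 CPM, log2 fold change 1.17, SE 0.40, adjusted p = 0.141), and was not called in HC (0.10) or HHC (0.63). *Cpt1c* was not called, with log2 fold changes from −2.74 to 1.26.

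**Figure D4:**
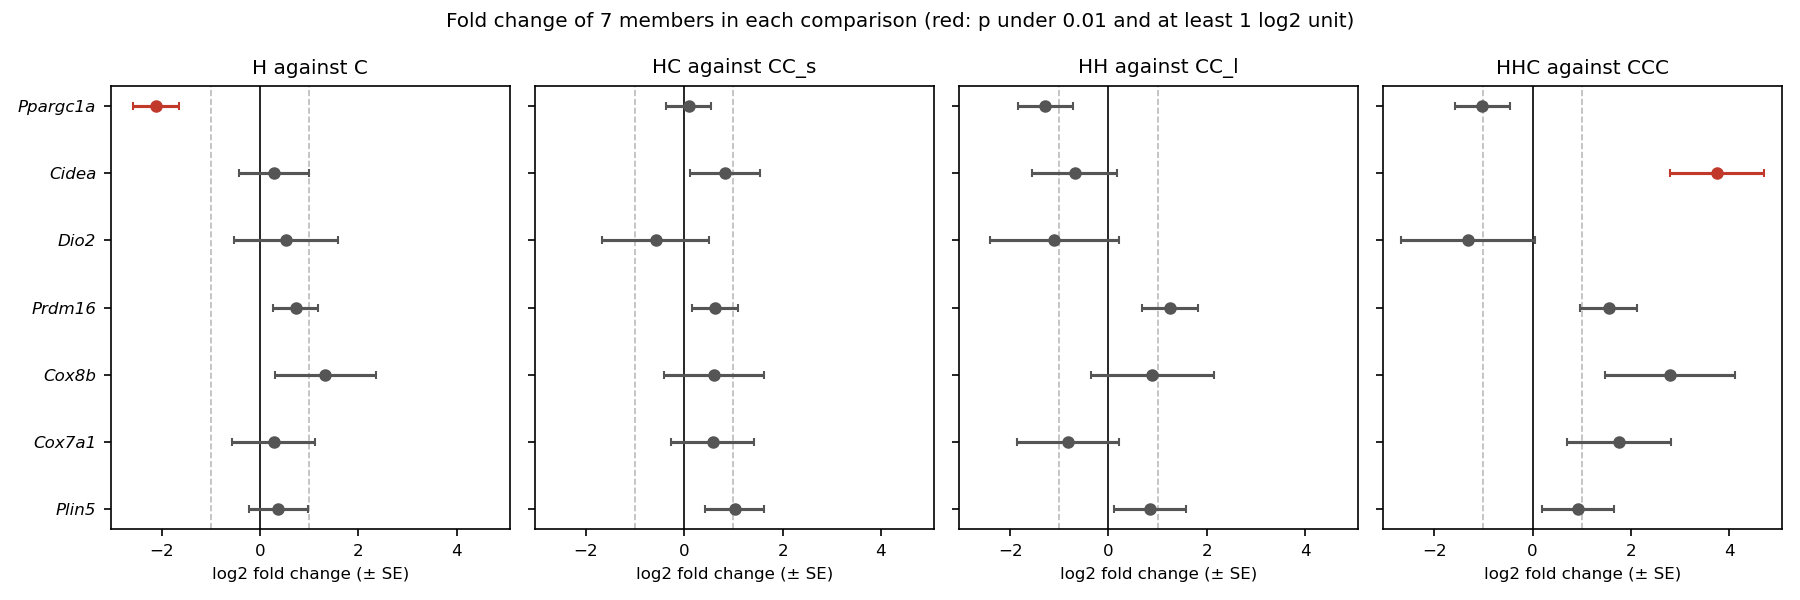
Log2 fold change with its standard error for 7 members in the 4 comparisons (red, called; dashed lines, 1 log2 unit in either direction; *Ucp1*, *Elovl3* and *Cpt1b* are left out for low counts). *Ppargc1a* in H (−2.12) and *Cidea* in HHC (3.75) are the 2 calls.

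HHC 1 held the highest *Ucp1*, *Cidea* and *Cox8b* of the 20 libraries and the second highest *Cox7a1* and *Plin5*, while it ranked 9 for *Ppargc1a*, 12 for *Dio2* and 8 for *Prdm16*. HHC 2 ranked 2, 3 and 1 for *Cidea*, *Cox8b* and *Cox7a1* but had no count of *Ucp1*. HHC 1 was also the library with the fewest counts in all, 10710277. It had 96.7 CPM of 6 lymphocyte markers, against at most 39.6 CPM elsewhere. Between the members, log2 CPM of *Cox8b* and *Cox7a1* went together over the 20 libraries (Pearson r = 0.88; r = 0.93 after the group means were removed), as did *Cidea* and *Cox7a1* (r = 0.81; 0.78 within groups) and *Cidea* and *Cox8b* (r = 0.75; 0.85 within groups). *Ppargc1a* ran opposite to *Cox8b* (r = −0.61) and to *Elovl3* (r = −0.67). *Prdm16* and *Cidea* had r = 0.00 over all libraries and r = −0.59 within groups. These are descriptions over 20 libraries that share groups and differ in nuclear-retained RNA.

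The genes whose log2 CPM was most like that of a member over the 20 libraries were *Gm38244* (Pearson r = 0.94), *Mlxipl* (r = 0.93) and *2010016I18Rik* (r = 0.93) for *Ppargc1a*. For *Cidea* they were *Pabpc1* (r = 0.85), *Myom3* (r = 0.83) and *Rnf19b* (r = 0.82). For *Ucp1* they were *Cd52* (r = 0.73), *Gm11728* (r = 0.72) and *Irak4* (r = 0.70), and that pattern rests on the few mice with any *Ucp1* count. None of the 9 genes is another member of the set.

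Other genes of the thermogenic pathway were taken from lists chosen with earlier results of these data known, and their counts stand beside 6.49%, 1.74%, 6.79% and 3.12% of all genes called in H, HC, HH and HHC. With the 4 libraries rich in nuclear-retained RNA left out, 6 of the 14 calls on listed genes in H, 1 of 1 in HC, 6 of 7 in HH and 2 of 4 in HHC still passed the nominal thresholds. When 1 mouse was left out in turn, the calls held in every fit for *Adrb1*, *Alpl*, *Ppargc1b*, *Ucp2* and *Vegfa* in H, *Ucp2* in HC and *Pdk4* in HHC, and the others were lost in at least 1 fit. Of upstream signalling genes, 20 were tested. In H, 3 fell and none rose: *Adrb1*, a beta-adrenergic receptor (16.5 ± 6.7 CPM in C and 2.42 ± 1.23 CPM in H, SD, n = 3 each; log2 fold change −2.77, SE 0.48, edgeR adjusted p = 0.00801), *Adrb3*, the main beta-adrenergic receptor of mouse adipocytes (334 ± 141 and 90.8 ± 43.5 CPM; −1.88, SE 0.60, adjusted p = 0.116), and *Vegfa*, an angiogenic factor (192 ± 91 and 30.9 ± 9.9 CPM; −2.63, SE 0.51, adjusted p = 0.0139). None was called in HC or HH, and *Vegfa* alone in HHC (−2.45, SE 0.63, adjusted p = 0.202). The *Vegfa* values of C 1, C 2 and CCC 2, at 210, 271 and 338 CPM, were the highest of all libraries. Without the 4 libraries *Vegfa* was −1.48 in H (adjusted p = 0.0790), still called, and −1.03 in HHC (adjusted p = 1.0), not called, and *Adrb3* in H was −1.04 (adjusted p = 0.368), not called, while *Adrb1* was −1.88 (adjusted p = 0.0951) and called. The median log2 fold changes of the list were −0.24, −0.11, 0.14 and −0.26 in H, HC, HH and HHC.

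Of 25 other transcriptional regulators tested, 2 fell in H and none rose: *Ppargc1b*, described above, and the corepressor *Nrip1* (−1.39, SE 0.41, edgeR adjusted p = 0.0852). In HH, 2 fell, the thyroid hormone receptor *Thra* (−1.56, SE 0.42, adjusted p = 0.0639) and *Zbtb16* (−2.41, SE 0.64, adjusted p = 0.0610), and none was called in HC or HHC. The list medians were −0.46, −0.05, −0.53 and 0.30.

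Of 29 other markers and effectors tested, 3 rose and 2 fell in H. *Nrg4*, a secreted factor of brown fat, fell from 241 ± 110 CPM in C to 51.2 ± 13.4 CPM in H (SD, n = 3 each; log2 fold change −2.24, SE 0.65, edgeR adjusted p = 0.0836), and *Ffar4*, a fatty acid receptor, fell by 1.41 on the log2 scale (adjusted p = 0.102). *Hspb7* (3.07, adjusted p = 0.0692), *S100b* (2.90, adjusted p = 0.133) and *Otop1* rose, the last from 0.0363 to 5.68 CPM. In HC none was called, and in HH 2 fell: *Hspb7* (−3.24, adjusted p = 0.118), in the opposite direction to H, and *Tbx1*, which had no count in either HH mouse. In HHC, 3 rose. *Pdk4*, a kinase that turns fuel use from glucose to fat, had 299.7 and 56.8 CPM against 14.2 and 14.1 CPM in CCC (3.66, SE 0.56, adjusted p = 0.0974). *Fbp2*, a gluconeogenic isoenzyme of muscle, had 12.7 and 17.2 CPM against 1.79 and 0 CPM (4.06, SE 1.23, adjusted p = 0.276). *Fabp3*, a fatty acid binding protein of muscle and brown fat, had 115 CPM in HHC 1 and 0.108 CPM in HHC 2, so that its call rests on 1 mouse. The list medians were 0.07, 0.38, 0.19 and 0.40.

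Of 16 genes of heat production without UCP1 (creatine, calcium and lipid cycling) tested, *Alpl*, the alkaline phosphatase of the creatine cycle, rose in H (1.91 ± 0.28 CPM in C and 8.25 ± 0.48 CPM in H, SD, n = 3 each; log2 fold change 2.11, SE 0.57, edgeR adjusted p = 0.0636), and no other gene of the list was called in any comparison. The list medians were 0.13, 0.39, 0.35 and 0.40, beside −0.15, 0.27, −0.23 and −0.06 over all genes tested. Of 18 partner isoforms tested, 2 rose and 2 fell in H, 1 rose in HC, 3 rose in HH and none was called in HHC.

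For the 9 members tested, the groups did not overlap for 3 members in H against C (2 above the controls, 1 below) and for none in HC against CC_s. They did not overlap for 7 in HH against CC_l (4 above, 3 below) and for 6 in HHC against CCC (4 above, 2 below). The 7 in HH include *Ucp1*, at 14 and 8 counts against 0 and 4. Over all genes tested, 25.1%, 13.8%, 55.3% and 28.8% did not overlap. The interaction contrasts test whether the effects of H and HC, HH and HHC, HH and H, or HHC and HC differ. None called a member at an adjusted p below 0.05, against 0.0%, 0.815%, 0.0% and 0.0% of all genes by edgeR. At an unadjusted p below 0.05 they held 1, 1, 0 and 1 of the 9 members, beside 2538, 3334, 1242 and 2534 of all 21464 genes.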

How the data were processed

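Ribosome-bound RNA was measured in 20 libraries. Per the labels and the study's methods, the authors checked reads with FastQC 0.11.9, trimmed them with Trim Galore 0.6.6, aligned them to mm10 with HISAT2 2.2.1 and counted them per gene with featureCounts (Subread 2.0.1); the annotation, strand and pair settings are not given in the sources used here. The deposited values are raw counts. From these, edgeR 4.0.16 (R 4.3.3) was used: filterByExpr, TMM normalization, and quasi-likelihood tests (glmQLFit, glmQLFTest) on all 20 libraries in 8 groups, without a block. CPM values use TMM library sizes, and log2 CPM a prior count of 2. The fit was tested on simulated data. The study's thresholds (nominal p below 0.01, log2 fold change of at least 1) define a call; interactions used an adjusted p below 0.05. DESeq2 1.42.0 was an alternative. Symbols were matched by Ensembl identifier. Named were all 10 members, all partner isoforms, called genes of the other lists and the 3 genes most like *Ucp1*, *Cidea* and *Ppargc1a*. The members and lists were chosen with earlier results of these data known, and the 2 settings for nuclear-retained RNA after seeing the data. The labels number biological replicates but do not say that they pair across groups.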

Additional observations from a re-analysis of the deposited data

How the results depend on the processing

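The fold changes of the members kept their direction and their side of the thresholds in 250 of 270 refits with another setting and in 137 of 150 that left out 1 mouse. This tally leaves out *Ucp1* and *Cpt1b* throughout and *Elovl3* in HC and HHC, where counts were very low. A member that stayed uncalled with the same sign counts as kept, even where its fold change moved. An example is *Cox8b* in H, at 1.32 and at 0.0056 without the 4 libraries rich in nuclear-retained RNA. DESeq2 gave no p for *Cox8b* in any of the 4 comparisons, and its refit in H also counts as kept. In H, 1 member was called, against 2 by DESeq2 (*Elovl3*, *Ppargc1a*), the likelihood ratio test or the compared groups only, 3 without the filter on low counts (*Cox8b*, *Elovl3*, *Ppargc1a*), 0 without the 4 libraries rich in nuclear-retained RNA, and 1 to 2 when 1 mouse was left out. In HC, 0 were called, but 1 (*Plin5*) without those 4 libraries, and 0 to 1 with 1 mouse left out. In HHC, 1 was called, against 2 by DESeq2 or with the covariate (*Cidea*, *Prdm16*), 2 with the compared groups only (*Cidea*, *Cox8b*), 3 without the filter (*Cidea*, *Cox7a1*, *Cox8b*), 0 at an adjusted p below 0.05, and 0 to 2 with 1 mouse left out. None of the differences between comparisons was called for a member, but DESeq2 called 1 for H against HC (*Ppargc1a*), as did the nominal thresholds. For HH against HHC, 1 (*Cidea*) was called by DESeq2, the likelihood ratio test, the covariate or the nominal thresholds, and 2 without the filter (*Cidea*, *Cox7a1*), which also gave 2 for HHC against HC (*Cidea*, *Cox8b*).

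Among the refits in this tally, which leaves out *Ucp1* and *Cpt1b* throughout and *Elovl3* in HC and HHC, fold changes turned sign as follows. In H, with the covariate, *Cidea* was −0.24, *Cox7a1* −0.57 and *Plin5* −0.16, and without the 4 libraries *Cidea* was −0.71, *Dio2* −0.71 and *Cox7a1* −0.86. With 1 mouse left out, *Cidea* ranged from −0.66 to 1.57 and *Cox7a1* from −0.23 to 1.97. *Ppargc1a* in HC was −0.047 with the covariate, −0.38 without the 4 libraries and −0.34 to 0.37 with 1 mouse left out. *Cox8b* in HH ranged from −0.64 to 1.64 and *Plin5* in HHC from −0.14 to 1.52. The cause was not tested.

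Over all genes, calls in H, HC, HH and HHC were 1392, 374, 1458 and 669. They were 2267, 783, 2369 and 1235 by DESeq2, 2092, 972, 2029 and 1190 by the likelihood ratio test, 2492, 1764, 2879 and 1266 without the filter, 2720, 489, 3222 and 755 with the covariate, 1458, 243, 1894 and 218 with the compared groups only, and 1942, 239, 2472 and 220 without the 4 libraries. In HHC, 96 of the 669 were higher, against 156 of 577 with RLE normalization. The difference between HH and HHC passed an adjusted p below 0.05 for 175 genes, against 1193 by DESeq2, 961 by the likelihood ratio test, 1266 without the filter, 834 with the covariate, 109 with halved counts, 21 with RLE, 12 without the 4 libraries and 1 with the replicate block. For H against HC it passed for 0 genes, against 444 by DESeq2, 460 by the likelihood ratio test and 1403 without the filter. Taken as deviations from group means, same-numbered mice had correlations of −0.17, 0.19 and 0.19 in H, −0.28, 0.06 and −0.24 in HC, −0.19 in HH and −0.26 in HHC. These cannot decide whether the replicate numbers pair the mice, since deviations within such small groups depend on each other. The replicate block gave 1032, 204, 1040 and 375 calls over all genes and changed no member's call (*Ppargc1a* in H −2.10, adjusted p = 0.0837 and *Cidea* in HHC 3.77, adjusted p = 0.395). Genes at a few counts, *Ucp1* and *Cpt1b*, are limited by depth.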
